A study of Homo sapiens with 5 samples.

Results

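The genes of the proteasome were examined in CUT&Tag peak lists of SNU638, a human cell line established from gastric cancer. They were chosen by symbol, as GENCODE 44 protein-coding genes that start with PSMA, PSMB, PSMC, PSMD, PSME, PSMF or PSMG, without PSMC3IP and hyphenated read-through names, which gave 49 genes of 19689. One of them, PSME3IP1, meets the rule by its symbol and encodes a protein that binds PSME3, not a subunit. CUT&Tag tethers a transposase to an antibody on its target, so that the DNA around the target is cut and sequenced. The antibodies were against ACTL6A, BRG1 and NRF2, with 1 library for each of them, and IgG, the control antibody, had 2 libraries, named IgG 1 and IgG 2 here. The peak names of IgG 1 carry BRG1, and which antibody each IgG library was made for is not otherwise given. No treatment or genotype was compared and the sources name no added agent. The 3 antibodies had no replicate libraries, so the spread between replicates is unknown and no test between lists was made.

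ACTL6A is an actin-like subunit of the BAF (SWI/SNF) chromatin remodelling complex and BRG1 is its ATPase. NRF2, the product of NFE2L2, is the transcription factor of the antioxidant response and binds antioxidant response elements (AREs) with a small MAF partner. The proteasome degrades proteins tagged with ubiquitin. Its barrel-shaped core particle has outer rings of alpha subunits (PSMA) and inner rings of beta subunits (PSMB), some of which cut the protein chain, and a regulatory particle of ATPases (PSMC) and other subunits (PSMD) binds, unfolds and feeds in the substrate. NFE2L1, often called NRF1, restores proteasome gene expression through AREs when the proteasome is inhibited, and NRF2 can raise several of the same genes under oxidative stress. That NRF1 is a relative of NRF2 and is not nuclear respiratory factor 1, an unrelated factor that shares the abbreviation.

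The reference sequence at the NRF2 peaks is shown first, because the ARE core is the letter pattern most directly tied to this antibody's target. The pattern searched for the core was TGACNNNGC, on both strands. Of 29 proteasome genes with an NRF2 peak at a transcription start, 10 had a core within the 200 bp around the summit, the position of highest signal. This is 34.5%, against 10.3% of all 5541 genes with such a peak. Over all genes with a peak, the core was no more frequent at NRF2 summits than at BRG1 summits (10.9%) or ACTL6A summits (10.4%). Each sequence is GRCh38, written 5′ to 3′ on the strand of the gene, with the core in capitals in either orientation. It is cut short where it would run into an annotated exon. Where the core itself lies in an annotated exon of any gene, only 29 bases are printed, and these are exon sequence at least in part. They are ordered by the distance from the core to the NRF2 summit, closest first.
PSMA5, chr1:109426161-109426280, minus strand: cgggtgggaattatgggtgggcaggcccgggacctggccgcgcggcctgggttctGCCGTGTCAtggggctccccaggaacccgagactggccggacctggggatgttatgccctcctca
PSMD5, chr9:120843038-120843066, minus strand: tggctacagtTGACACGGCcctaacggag
PSMD6, chr3:64023239-64023267, minus strand: ccgcacgagcGCCGAGTCAgcggcctagg
PSME4, chr2:53971009-53971037, minus strand: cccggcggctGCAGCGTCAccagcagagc
PSMD7, chr16:74296989-74297093, plus strand: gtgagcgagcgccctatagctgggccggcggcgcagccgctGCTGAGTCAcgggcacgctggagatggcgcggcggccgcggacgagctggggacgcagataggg
PSME2, chr14:24146767-24146795, minus strand: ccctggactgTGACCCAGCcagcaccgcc
PSME1, chr14:24136052-24136162, plus strand: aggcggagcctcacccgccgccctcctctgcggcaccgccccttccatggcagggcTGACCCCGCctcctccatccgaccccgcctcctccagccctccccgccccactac
PSMG1, chr21:39183570-39183689, minus strand: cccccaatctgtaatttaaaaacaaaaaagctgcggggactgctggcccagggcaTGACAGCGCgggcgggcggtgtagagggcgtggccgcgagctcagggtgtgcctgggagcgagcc
PSMD1, chr2:231056896-231056924, plus strand: aggaggcgacTGACTGAGCagcgcacccg
PSMD12, chr17:67366467-67366495, minus strand: gctgacgggcGCATCGTCAagatggaggt

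The core closest to an NRF2 summit was that of PSMA5, an alpha ring subunit, 6 bp away in an intron. PSMD5, an assembly chaperone of the regulatory particle, had a core of the same 9 letters, TGACACGGC, 7 bp from the summit and centred 130 bp before the MANE Select start, the start of the gene's reference transcript. PSMD6 followed at 14 bp, in an intron of the reference transcript that is an exon of another, noncoding one. At PSME4, an activator of the core particle, the core lay 18 bp from the summit, before the gene's own start and in the untranslated region of the divergent gene ACYP2. PSMD7 had TGACTCAGC at 32 bp, in an intron. This is the only one of the sites shown that also holds TGACTCA, the AP-1 site. PSME2 (36 bp) and PSME1 (38 bp) encode the subunits of an interferon-inducible activator, and the PSME2 core lay before its reference start but within the untranslated regions of another PSME2 transcript and of RNF31. The core of PSMG1, an assembly chaperone of the core particle, was 43 bp from the summit, that of PSMD1 58 bp in the untranslated region and that of PSMD12 88 bp in a coding exon.

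At 4 further genes a core near the start lay inside the NRF2 peak but more than 100 bp from its summit. They are shown for comparison, and PSMD9 had a pair of cores.
PSMD9, chr12:121888631-121888659, plus strand: cgctactcctGCCGGGTCAccacaggcgc
PSMD9, chr12:121888644-121888731, plus strand: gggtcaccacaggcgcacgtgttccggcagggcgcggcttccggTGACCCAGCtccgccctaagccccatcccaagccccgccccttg
PSMB3, chr17:38752581-38752700, plus strand: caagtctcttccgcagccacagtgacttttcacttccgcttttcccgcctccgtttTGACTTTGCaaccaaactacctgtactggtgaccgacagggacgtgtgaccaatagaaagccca
PSMD3, chr17:39980714-39980806, plus strand: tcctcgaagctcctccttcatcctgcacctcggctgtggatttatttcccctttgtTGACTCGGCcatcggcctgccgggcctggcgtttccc
PSMC4, chr19:39971182-39971210, plus strand: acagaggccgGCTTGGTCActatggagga

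Their cores were 120 and 167 bp from the NRF2 summit at PSMD9, 128 bp at PSMB3, 160 bp at PSMD3 and 232 bp at PSMC4. In all, 15 cores in 14 genes are shown, and all 15 also lay in a BRG1 peak and 9 in an ACTL6A peak. The cores were chosen inside NRF2 peaks. These overlapped a BRG1 peak at 29 of 29 proteasome genes with both, and at 91.6% of all such genes. The BRG1 count therefore follows largely from that choice, and no such count was made for cores at other genes. A match is a description of the letters and not a measured binding site.

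In the full lists, nearly all proteasome genes had BRG1 at a start, and most had ACTL6A or NRF2. A peak was taken to be at a gene when no more than 1 kb separated it from a start (the 5′ end of any protein-coding transcript) of that gene. BRG1 peaks were at 47 of 49 genes, 95.9% with a Wilson 95% interval of 86.3 to 98.9%, against 63.5% of all genes. For ACTL6A there were 32 of 49, 65.3% (51.3 to 77.1%), against 38.5% of all genes. NRF2 peaks were at 29 of 49, 59.2% (45.2 to 71.8%), against 28.1%. All 3 antibodies had a peak at 24 of 49 genes, 49% (35.6 to 62.5%), against 22.1% of all genes. IgG 1 and IgG 2 had peaks at 0 of 49, which allows a share of up to 6.12% (3 counts of 49), and over all genes IgG 2 had a peak at 0.152% and IgG 1 at none. With only the highest 5000 peaks of each list, BRG1 was at 18 genes (19% of all genes), ACTL6A at 21 (19.4%), NRF2 at 23 (18.5%) and all 3 at 11 (8.27%), so that at equal list length BRG1 no longer had the most. These intervals and limits cover counting error only, and genes that share a peak are not independent.

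All 32 genes with ACTL6A and all 29 with NRF2 also had BRG1. Within the 47 genes with BRG1, NRF2 was at 29 (61.7%) against 43.6% of all genes with BRG1, and ACTL6A at 32 (68.1%) against 58.0%. The NRF2 share among genes with BRG1 thus had a Wilson interval of 47.4 to 74.2%, and the ACTL6A interval of 53.8 to 79.6% includes the share over all genes with BRG1. The genes fell into 5 patterns, with 24 that had all 3 antibodies, 8 with ACTL6A and BRG1, 5 with BRG1 and NRF2, 10 with BRG1 alone and 2 with none.

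Groups by role hold 1 to 11 genes, too few to set a role apart, and were not tested. Their counts stand beside all 3 antibodies at 49% of the proteasome genes and 22.1% of all genes. For single antibodies the shares of all genes were 63.5% for BRG1, 38.5% for ACTL6A and 28.1% for NRF2. The assembly chaperones of the regulatory particle had every antibody at every gene, PSMD5, PSMD9 and PSMD10 (3 of 3). PSME3IP1, alone in its group, also had all 3 antibodies. The assembly chaperones of the core particle had all 3 antibodies at PSMG1 and BRG1 alone at PSMG2, PSMG3 and PSMG4. In the alpha ring, BRG1 was at 7 of 8 genes, ACTL6A at 5 and NRF2 at 4. In the constitutive beta ring the counts were 6 of 7 for BRG1, 4 for ACTL6A and 3 for NRF2. Of the 4 inducible and thymic beta genes, all had BRG1, 3 had ACTL6A and 2 had NRF2. Among the 6 ATPase genes these counts were 6, 4 and 3, and among the 11 other subunits of the regulatory particle 11, 8 and 8. The activators and the inhibitor PSMF1 had BRG1 at 5 of 5, ACTL6A at 3 and NRF2 at 4.

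Peaks were ranked within their own list by the caller's −log10 q-value, and the number of fragments at the summit was recovered from the caller's values. In the BRG1 list, the highest peak at a proteasome gene was that of PSMC4, an ATPase of the regulatory particle, at rank 272 of 48793 with 77 fragments where 2.51 were expected. PSMG1 was next at rank 282 with 83 fragments against 3.32, and then PSMD3, a lid subunit, at rank 634 with 71 against 3.72. In the ACTL6A list of 23917 peaks, PSMA1 was highest at rank 282 with 30 fragments against 1.02, then PSMG1 at rank 518 with 25 against 0.973 and PSMD3 at rank 801 with 24 against 1.28. PSMG1 and PSMD3 were thus among the 3 highest in both remodeller lists.

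In the NRF2 list of 9045 peaks, PSMD5 led at rank 488 with 55 fragments against 7.30 expected, followed by PSMD12, a lid subunit, at rank 948 with 31 against 3.26 and PSMG1 at rank 1039 with 26 against 2.27. PSMD5 was the only proteasome gene in the highest 10% of NRF2 peaks, 1 of 29 (3.45%), where 7.87% of all genes with an NRF2 peak were in that range. In the BRG1 list 17 of 47 were in the highest 10% (36.2% against 29.3% of all genes with a BRG1 peak), and in the ACTL6A list 14 of 32 (43.8% against 26.7%). The median rank of the proteasome peaks was the top 12.1% for BRG1, 13.6% for ACTL6A and 32.2% for NRF2, and over all genes with a peak 18.8%, 20.7% and 41.8%. Median fragments at the summit were 26, 13 and 19 at proteasome genes and 22, 10 and 19 over all genes with a peak.

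The lowest ACTL6A and BRG1 peaks rested on few fragments. For ACTL6A these were PSMB7 at rank 18037, PSMD2 at rank 16812 and PSMD6 at rank 16578, with 5 fragments each. The lowest BRG1 peaks were at PSMB11 (rank 36069, 8 fragments), PSMB5 (rank 31253, 7 fragments) and PSMC1 (rank 25305, 7 fragments). NRF2 was lowest at PSMB1 (rank 6357, 14 fragments), PSMD7 (rank 5684, 13 fragments) and PSME1 (rank 5577, 18 fragments).

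The catalytic beta subunits of the constitutive proteasome had low or middling BRG1 peaks. PSMB5, the chymotrypsin-like subunit, had only the low BRG1 peak. PSMB6, the caspase-like subunit, had a BRG1 peak of 14 fragments against 0.777 at rank 13119 and no ACTL6A or NRF2 peak. PSMB7, the trypsin-like subunit, had 12 BRG1 fragments against 1.27 at rank 21296 and the low ACTL6A peak, with no NRF2 peak. These 3 genes therefore had no NRF2 peak at all and their BRG1 peaks stood between the top 26.9% and the top 64.1% of the list.

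PSMB8 and PSMB9, the immunoproteasome subunits induced by interferon, shared a single peak in each list, so their values are counted for both genes and are not independent. This BRG1 peak (chr6:32844279-32844979) had 57 fragments against 2.33 at rank 842, the ACTL6A peak 17 against 0.778 at rank 1534 and the NRF2 peak 19 against 2.65 at rank 2892. It lay 10 bp upstream of a PSMB8 start in the BRG1 list and, from the other strand, 147 bp upstream of an alternative PSMB9 start. The reference start of PSMB9 is farther on, beside the divergent gene TAP1, a peptide transporter of antigen presentation. A second peak of every antibody lay there, with 35 fragments for BRG1 at rank 3888, 9 for ACTL6A at rank 6034 and 19 for NRF2 at rank 4351. PSMB10, the remaining immunoproteasome subunit, had 21 ACTL6A fragments against 1.23 at rank 1236 and 43 BRG1 fragments against 3.23 at rank 3437, and no NRF2 peak. PSMB11, the thymic subunit, had a single low BRG1 peak with its summit 563 bp into the gene.

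No antibody peak was at PSMA8, the alpha subunit of the testis proteasome, or at PSMB4, a constitutive beta subunit. At PSMB4 (chromosome 1, start at 151399573) the nearest peak of BRG1 was 29512 bp away, that of ACTL6A 52045 bp and that of NRF2 87769 bp. For PSMA8 the distances were 24895, 42600 and 42701 bp. PSMB4 was the only constitutive core subunit without a BRG1 peak. A list without a peak does not show that the protein is absent there.

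The 18 genes with BRG1 but no NRF2 peak were PSMA3, PSMA4, PSMA7, PSMB5, PSMB6, PSMB7, PSMB10, PSMB11, PSMC1, PSMC3, PSMC6, PSMD8, PSMD13, PSMD14, PSMF1, PSMG2, PSMG3 and PSMG4. Of these, the 10 with BRG1 alone had a median of 14 BRG1 fragments (7 to 33) and the 8 that also had ACTL6A a median of 21.5 (12 to 43). The 24 genes with all 3 antibodies had a median of 32.5 (13 to 83) and the 5 with BRG1 and NRF2 a median of 38 (27 to 55). BRG1 peaks were thus higher in the median where NRF2 was also found, with ranges that overlapped.

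Over all genes, too, NRF2 was more frequent at high BRG1 peaks, so the NRF2 counts were set beside genes of like BRG1 height. In the highest 5% of BRG1 peaks, 10 of 10 proteasome genes had NRF2, against 80.4% of 1863 genes. From 5 to 10% it was 6 of 7 against 66.6%, from 10 to 20% 10 of 16 against 50.6%, and from 20 to 40% 3 of 9 against 29.9%. Below that, 0 of 5 had NRF2, against 10.5%. The ACTL6A counts in the same order were 8 of 10, 6 of 7, 12 of 16, 5 of 9 and 1 of 5, against 90.4%, 80.5%, 67.3%, 45.7% and 23.6%. The shares over all genes fell with BRG1 height for both antibodies, and what part of the NRF2 count this accounts for was not tested.

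The summits sat close to the starts. The median distance from the summit to the nearest start of the gene was 107.5 bp for ACTL6A, 107 bp for BRG1 and 99 bp for NRF2, and over all genes with a peak it was 138, 126 and 162 bp. The summit was within 250 bp at 25 of 32 genes for ACTL6A (78.1% against 70.8%), 41 of 47 for BRG1 (87.2% against 74.8%) and 27 of 29 for NRF2 (93.1% against 68.1%). ACTL6A summits were upstream at 23 of 32 genes, BRG1 summits at 32 of 47 and NRF2 summits at 14 of 29, where all genes with a peak had 5228 of 7578, 7707 of 12512 and 3176 of 5541. The median signed positions were −78.5, −50 and 3 bp, against −75, −49 and −32 bp over all genes, so that those of ACTL6A and BRG1 were near the background. Measured to the reference start only, the median distance was 175.5 bp for ACTL6A, 130 bp for BRG1 and 137 bp for NRF2. No value over all genes stands beside these, so the closer position holds only for the nearest of all starts.

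**Figure D1:**
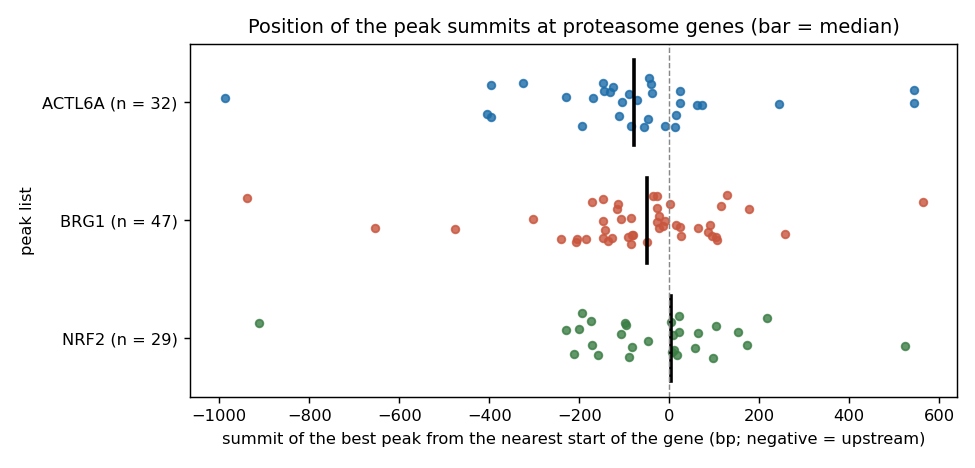
Each point is a proteasome gene, at the distance in bp from the nearest start of the gene to the summit of its best peak (negative is upstream), with 1 row per list and a bar at the median; vertical spread within a row carries no value. The medians are −78.5 bp for ACTL6A, −50 bp for BRG1 and 3 bp for NRF2, and the point farthest upstream in each row is PSMB1.

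Where several antibodies had a peak, the peaks mostly overlapped. BRG1 and NRF2 peaks shared at least 1 bp at 29 of 29 genes (100% against 91.6% of all genes with both), ACTL6A and BRG1 at 30 of 32 (93.8% against 86.8%) and ACTL6A and NRF2 at 22 of 24 (91.7% against 89.4%). The exceptions were PSMD6 and PSME4 for ACTL6A and BRG1, and PSMD11 and PSME4 for ACTL6A and NRF2. The median gap between summits was 71 bp for BRG1 and NRF2, 72 bp for ACTL6A and BRG1 and 149.5 bp for ACTL6A and NRF2, against 144, 86 and 148 bp over all genes.

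Some of these peaks belong as much to a neighbour. A coding gene that starts within 1 kb on the opposite strand was found for 13 of 49 proteasome genes (26.5%), against 11.9% of 19061 genes with a reference transcript. NRF2 was at 10 of these 13 genes (76.9%) and at 19 of the 36 others (52.8%), where all genes with and without such a neighbour had 61.2% and 23.8%. ACTL6A was at 10 of 13 and 22 of 36 (all genes 70.5% and 34.4%), and BRG1 at 13 of 13 and 34 of 36 (93.3% and 60.0%). For ACTL6A and BRG1 the shares of the genes with a neighbour were near those of all such genes, and the wider gaps to all genes were among those without one.

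At PSMB1, a beta subunit, the summits were 938 bp upstream for BRG1, 987 bp for ACTL6A and 911 bp for NRF2, and 57, 8 and 84 bp from the start of TBP, the TATA-binding protein. The best peak at PSMC2 lay 4 to 115 bp from the start of DNAJC2, and that at PSME3 36 to 220 bp from the start of BECN1. Counted over the lists, the summit was nearer to the start of a coding gene on the opposite strand at 10 of 47 genes for BRG1, 8 of 32 for ACTL6A and 6 of 29 for NRF2. For PSMB9 that gene was PSMB8, itself a proteasome gene. The same count was not made over all genes, so whether it is particular to proteasome genes is not known. The lists cannot say which gene such a peak serves.

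The ARE core was then counted in a fixed window, from 250 bases before to 50 after the reference start, so that genes without a peak could be included. It was present at 14 of 49 proteasome genes (28.6%), against 14.1% of 19061 genes. In the 200 bp at the NRF2 summits it was present at 10 of 29 (34.5%), against 10.3% of 5541 genes. At BRG1 summits the counts were 10 of 47 (21.3% against 10.9%) and at ACTL6A summits 7 of 32 (21.9% against 10.4%). In 200 bp windows 1 kb to each side of the NRF2 summits, chosen after the data were seen, 2 of 58 held the core (3.45%), against 5.83%. Beside the BRG1 summits such windows held it in 8 of 94 (8.51% against 6.58%) and beside the ACTL6A summits in 6 of 64 (9.38% against 6.52%). The share was thus higher than that of all genes at the summits of all 3 antibodies, and also, by less, beside the BRG1 and ACTL6A summits.

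Of the 14 genes with the core at the start, 12 had an NRF2 peak (85.7%), and of the 35 without it 17 had one (48.6%). Over all genes these shares were 32.0% and 27.6%. BRG1 was at 14 of 14 and 33 of 35, and ACTL6A at 9 of 14 and 23 of 35, so that the ACTL6A shares were 64.3% and 65.7%. The 2 genes with a core and no NRF2 peak were PSMA7, with 3 cores between 47 and 119 bases before its start, and PSMB6, with 1 core 11 to 19 bases before. All of these lay inside the BRG1 peak of the gene. At PSMB9 the core lay at its reference start, inside the ACTL6A and BRG1 peaks and outside the NRF2 peak. At PSMD12 the core of the start window lay inside the BRG1 peak and outside the NRF2 peak. It is not the PSMD12 core shown above, which lies in a coding exon. A further PSMD12 core, TGACTCAGC (chr17:67366365-67366373), lay inside both the BRG1 and NRF2 peaks, 93 bp from the BRG1 summit, and is not shown. PSMB9 and PSMD12 are counted among the 12, so that count does not require the core to lie inside the NRF2 peak. With the looser form TGANNNNGC, 18 of 31 genes with it and 11 of 18 without it had NRF2. The difference thus did not hold under that form, nor in the wider window of 1 kb to each side, with 20 of 35 and 9 of 14. With an A or G required before the core, NRF2 was at 7 of only 8 genes with it and at 22 of 41 without. These shares were 87.5% and 53.7%, and over all genes 33.6% and 27.8%.

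Other letter patterns were nearer to the background. CCAAT, the NF-Y box, was in the start window of 21 of 49 genes (42.9% against 36.1%), and ACTL6A was at 18 of those 21 and at 14 of the 28 others (85.7% and 50.0%, all genes 43.8% and 35.8%). NRF2 was at 16 of the 21 and 13 of the 28 (76.2% and 46.4%, all genes 33.2% and 25.4%), a split like that by the ARE core. GCGCANGCG, the pattern of nuclear respiratory factor 1, was in 5 of 49 (10.2% against 11.1%). The median GC content of the windows was 61.3%, against 63.7% over all genes.

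Outside the symbol rule, 10 further factors of the proteasome had BRG1 at 10, ACTL6A at 9 and NRF2 at 8, where genes with BRG1 in general had ACTL6A at 58.0% and NRF2 at 43.6%. Among them, ADRM1, a ubiquitin receptor, USP14 and UCHL5, deubiquitinases, and AKIRIN2, which takes proteasomes into the nucleus, had all 3. POMP, a chaperone of the core particle, had ACTL6A and BRG1 peaks and no NRF2 peak. PAAF1, which binds the ATPase ring, had 63 BRG1 fragments against 2.43 at rank 600, 33 ACTL6A fragments against 1.53 at rank 317 and 15 NRF2 fragments against 2.73 at rank 5518.

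Of 9 genes of the NFE2L1 pathway, BRG1 was at 9, ACTL6A at 6 (66.7%) and NRF2 at 6 (66.7%), so that the ACTL6A share was near the 58.0% of all genes with BRG1, and that of NRF2 stood beside 43.6%. NFE2L1 itself had 85 BRG1 fragments against 6.19 at rank 609, 30 ACTL6A fragments against 1.97 at rank 616 and 42 NRF2 fragments against 5.57 at rank 753. DDI2, the protease that cleaves NFE2L1, NGLY1, which removes its sugars, VCP, which extracts it from the membrane, SYVN1, a ubiquitin ligase, and NFE2L2 also had all 3 antibodies. The small MAF genes MAFF, MAFG and MAFK had BRG1 alone.

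As a comparison chosen after the data were seen, other large complexes made of many subunits were counted in the same way. Genes of the cytosolic ribosome had BRG1 at 74 of 86 (86.0%), ACTL6A at 60 (69.8%) and NRF2 at 41 (47.7%). Genes of respiratory complex I had BRG1 at 37 of 37, ACTL6A at 26 (70.3%) and NRF2 at 16 (43.2%). Over all genes BRG1 was at 63.5%, ACTL6A at 38.5% and NRF2 at 28.1%. The ACTL6A shares of both complexes exceeded that of the proteasome genes (65.3%). Their NRF2 shares lay between the 59.2% of the proteasome genes and the share of all genes. All complex I genes had BRG1, and their NRF2 share was near the 43.6% of all genes with BRG1, where proteasome genes with BRG1 had 61.7%. No test of the difference was made.

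Defining markers of the cell line's label were also counted. BRG1 was at 63.5% of all genes and ACTL6A at 38.5%, so a peak at so few markers cannot decide the label. The epithelial genes KRT8, KRT18, KRT19, EPCAM and CDH1 had BRG1 at 5 of 5 and ACTL6A at 4 of 5, and the markers of blood, stromal and endothelial cells PTPRC, CD3E, CD79A, COL1A1 and PECAM1 had BRG1 and ACTL6A at 1 of 5, which was COL1A1. NRF2 was at none of these 10 genes, against 28.1% of all genes. The BRG1 summit of KRT8 and the ACTL6A summit of KRT19 lay more than 1 kb from the nearest start. No best peak at a proteasome gene shared a base with a peak of either IgG library, and IgG 1 had 11 peaks and IgG 2 had 1746.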

How the data were processed

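CUT&Tag libraries of SNU638 cells (1 per antibody, 2 for IgG) were analysed as peak lists. The authors cleaned reads with fastp 0.23.0, mapped them to hg38 with BWA and called peaks in each library with MACS2 at a q-value below 0.05. The control given to the caller and the depth of each library are not given in the lists. In each deposited list the score is 10 times the −log10 q-value, cut to a whole number. The deposited fold enrichment divides the summit's fragments by the number expected, after 1 is added to each (a ratio), and the −log10 p-value and −log10 q-value are the caller's.

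The members and gene lists were chosen with earlier results of these data known. A peak was at a gene when within 1 kb of a 5′ end of its protein-coding transcripts (GENCODE 44, GRCh38), and 0 peaks ended past a chromosome. The best peak was the highest by −log10 q. Fragments at a summit were the whole number that gives both the fold and the p-value within 0.001 on the −log10 scale, found for 100% of the members' peaks. Shares have Wilson 95% intervals, and a count of 0 has the limit of 3 counts of the total, and both cover counting error only. With 1 library per antibody no test was possible. Named genes were the 3 highest and lowest of each list, catalytic members, members without peaks and those with an NRF2 peak and an ARE core, and other members appear by role. Sequences and motifs came from the reference. For 43 of 49 genes a RefSeq promoter was at hand, and 43 covered the same window. The alternatives tried were distances of 250 bp and 3 kb, reference starts only, peaks shared with IgG left out, other forms and windows of the ARE, the 5000 highest peaks, and peaks with −log10 q ≥ 5 alone. A further gene list is not reported here, for a reason unrelated to its values. The routines were tested on simulated data. Tools were samtools 1.23.1, pysam 0.24.0, SciPy 1.17.1, matplotlib 3.10.9, pandas 2.3.3, NumPy 2.4.6 and Python 3.11.15.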

Additional observations from a re-analysis of the deposited data

How the results depend on the processing

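Each antibody had 1 library, so how far a second library would move any count is not known, and a gene without a peak may lie below the depth of its list. No paired analysis was possible because none of the 3 antibodies had a second library. Of 55 values computed under the alternatives, 44 stayed within 1.5 times the reported value and 11 moved further. The 44 include values that could not move, so they overstate the stability. No best peak shared a base with an IgG peak, so leaving out shared peaks or an IgG library could change no count. An IgG count of 0 likewise cannot fall under a stricter setting. When peaks under a −log10 q of 5 were left out, the genes with all 3 antibodies fell from 24 to 15 (12.1% of all genes). With the highest 5000 peaks of each list they fell to 11, ACTL6A to 21 and BRG1 to 18, while NRF2 was at 23. The core in the start window was at 8 genes when an A or G had to precede it (7.22% of all genes), at 31 with the looser form (42.3%), at 35 in 1 kb to each side (54.4%) and at 7 in the 200 bp at ACTL6A summits (10.4%). At the NRF2 summits, the core was at 5 genes with the stricter form (17.2%, all genes 5%) and at 17 over the whole peak (58.6%, all genes 27.4%), both added after the data were seen. The median ACTL6A distance was 175.5 bp to the reference start. With either IgG library left out of the exclusion, the counts stayed at 32 for ACTL6A, 47 for BRG1, 29 for NRF2, 24 for all 3 and 0 for IgG. The causes of these changes were not tested, other than that the stricter choices leave fewer peaks.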
